A study of Homo sapiens with 24 samples.

Results

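Kinesins are motor proteins that walk along microtubules, and the genes described here are those whose symbols carry the KIF or KIFC name of that family. Antisense and pseudogene names were left out, and a mean of at least 1 CPM (the counts of a gene scaled to a common library total) over the 24 libraries was required, a measure of level and not of any difference between groups. Of 42 such symbols among the 26364 genes of the count tables, 33 met this rule. KIF26A (1.12 CPM) and KIF5A (1.40 CPM) lay just inside the limit, and KIF21B (0.883 CPM) and KIF12 (0.679 CPM) just outside it. The 33 genes were sorted by their textbook roles into 13 mitotic kinesins, 13 transport kinesins and 7 other kinesins.

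The libraries came from T-47D, an established ER-positive luminal breast cancer cell line. Its endogenous ESR1 gene was wildtype (WT) or, in heterozygous form, carried the Y537S or the D538G mutation, which change the ligand-binding domain of the estrogen receptor (ER). There were 2 clones of each of the 3 genotypes, so a genotype is represented by 2 clones only, and all cells were kept in hormone-deprived medium and transfected at 10 nM for 24 h. All clones were transfected with the mimic negative control and with a mimic of miR-301b-3p. A mimic of miR-331-3p went into Y537S and WT clones, and one of miR-181c-5p into D538G and WT clones. An inhibitor of let-7f-5p, and beside it the inhibitor negative control, went into Y537S clones only. Mimics imitate a mature miRNA and so raise its activity, whereas inhibitors bind the miRNA and lower it. Clones are called 1 and 2 for Y537S, A5 and C2 for D538G, and D1 and D4 for WT, as the columns of the tables name them.

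Mitotic kinesins build the spindle, align chromosomes and close the cell at cytokinesis, and most of them are made mainly in G2 and M phase, so their RNA is abundant in populations with many dividing cells. Transport kinesins carry vesicles, organelles or ciliary cargo along microtubules in cells at every stage. A miRNA lowers the RNA of genes whose 3′ untranslated region (3′UTR) pairs with its seed, bases 2 to 8 of the miRNA. In RNA from whole cultures, a lower share of cells in division and less RNA per dividing cell cannot be told apart.

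The 4 miRNAs are printed with their seed in capitals, since the seed sets which kinesin 3′UTRs hold a match. No pair of them shares a seed. The sequences are those of RefSeq on build GRCh38.p14.
miR-301b-3p: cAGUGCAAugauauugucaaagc
miR-331-3p: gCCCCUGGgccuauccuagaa
miR-181c-5p: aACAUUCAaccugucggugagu
let-7f-5p: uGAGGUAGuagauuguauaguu

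All 33 genes had a 3′UTR in the GENCODE v44 annotation lifted to GRCh37, and their canonical transcripts held 21 seed matches in all, each within 1 exon. The miR-181c match (TGAATGT) was found in 4 of the 33 genes: 3 times in KIF3A, 2 times in KIF3B and 1 time each in KIF2C and KIF5A. In the whole annotation it was found in 19.4% of 18762 genes with a 3′UTR. The miR-301b match (TTGCACT) was found in KIF1B (2 times), KIF16B and KIF5C (14.2% of all genes), and the miR-331 match (CCAGGGG) in KIF1B, KIF5A, KIF5C, KIF9, KIF13B, KIF16B, KIF24 and KIF26A (14.1% of all genes). The let-7f match (CTACCTC) was found in KIF27 and KIFC2 (9.84% of all genes). None of the 4 was found in the 3′UTR of KIF14, KIF11, KIF20A, KIF20B or KIF23. Shorter matches and other transcripts were not searched. The sites of the 3 genes that hold a miR-181c match and were called lower with that mimic in both genotypes, and the miR-301b site of KIF16B, are printed on the strand of the gene with the seed match in capitals. The coordinates are those of GRCh37 (hg19), the build of the authors' alignments.
KIF3B, chr20:30920494-30920522, plus strand: cctgtgttctgTGAATGTgtccatatgtg
KIF3B, chr20:30922248-30922276, plus strand: tcctccctcacTGAATGTagaatcgttgc
KIF3A, chr5:132031877-132031905, minus strand: gctgttatataTGAATGTttggactgtac
KIF3A, chr5:132031759-132031787, minus strand: gactgatcttaTGAATGTtttgtagaaaa
KIF3A, chr5:132030575-132030603, minus strand: aattggaatacTGAATGTcctgtgtgtgg
KIF2C, chr1:45233268-45233296, plus strand: gggccgagcacTGAATGTcttgtacttta
KIF16B, chr20:16252974-16253002, minus strand: ttaatgtagcaTTGCACTtctgtgtacag
The second KIF3B site is followed by an A, the 8-base form of a seed match.

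Libraries held between 31379962 and 50526442 counts. The summed level of 10 luminal epithelial markers ranged from 9859 to 15310.2 CPM over the 24 libraries, and that of 10 basal, mesenchymal and immune markers from 52.0 to 88.9 CPM, nearly all of it COL1A1. Of the latter 10 markers 8 had a median below 1 CPM, among them KRT5, KRT14 and PTPRC, and of the luminal markers only TFF1 did. The counts do not show the ESR1 mutations themselves. All 33 kinesin genes passed the filter on low counts in every comparison, so no member was lost to it. Values are normalized CPM, calls are genes with an adjusted p-value under 0.05 in edgeR's quasi-likelihood test over all genes, and fold changes are on the log2 scale with their standard error (SE). Each condition had 1 library per clone. The smallest two-sided p that exact permutation of 2 against 2 libraries allows is 0.333, and the edgeR p-values therefore lean on a spread shared among genes. KIFC1 varied without regard to group, from 0.0570 to 21.5 CPM, and its values are uncertain, since how the authors treated reads that map to several places is not given in the sources used here. KIF4B is a near-identical copy of KIF4A and KIF9 has an antisense partner, so both are uncertain for the same kind of reason.

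Per kilobase of transcript, the kinesins with the highest mean level over the 24 libraries were KIF22, a chromosome-arm motor of the spindle (50.9 CPM per kb), KIF11, the motor that pushes spindle poles apart (46.9 CPM per kb), and KIF5B, the heavy chain of conventional kinesin (45.2 CPM per kb). KIFC2 (42.0 CPM per kb) and KIF1C (40.9 CPM per kb), both counted as transport kinesins, came next. This order pools the genotypes. In WT libraries alone KIFC2 (55.7 CPM per kb), KIF5B (40.5 CPM per kb) and KIF1C (37.8 CPM per kb) stood above KIF22 (32.7 CPM per kb), KIF3B (30.4 CPM per kb) and KIF11 (22.4 CPM per kb). Over the 24 libraries KIF14, which acts in cytokinesis, was at 7.26 CPM per kb and KIF3B, a subunit of the kinesin-2 motor, at 34.8 CPM per kb. The lowest was KIF26A at 0.164 CPM per kb.

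The genotypes were compared with each other under the mimic negative control, which asks how the kinesins differ between ER mutant and WT cells with no miRNA added. Mitotic kinesins were higher in both mutants. In Y537S cells 12 of 13 were up-regulated, by 0.95 (KIF22) to 2.13 (KIF23) on the log2 scale, and the remaining one, KIFC1, did not pass (log2 fold change −0.32). In D538G cells 13 of 13 were called higher, by 0.72 (KIF22) to 1.71 (KIF23), with KIFC1 at 3.80. Over all genes tested, 16.3% were called higher in Y537S and 20.4% in D538G cells. The median mitotic kinesin differed from WT by 1.74 in Y537S and 1.45 in D538G cells, against a median over all genes of −0.0026 and −0.00078.

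KIF14, whose protein binds citron kinase and PRC1 at the midbody (chr1:200520628-200589879, minus strand), was at 25.5 and 25.8 CPM in the WT control libraries. It was at 62.7 and 76.7 CPM in D538G and at 103 and 99.7 CPM in Y537S clones. The libraries of the 3 genotypes did not overlap, and the difference from WT was 2.01 (SE 0.0904, edgeR adjusted p = 9.09e-05) in Y537S and 1.45 (SE 0.111, edgeR adjusted p = 2.57e-05) in D538G cells.

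KIF11 (chr10:94352887-94415152, plus strand) was at 110.0 and 109.7 CPM in WT, 261 and 309 CPM in D538G, and 381 and 333 CPM in Y537S clones. This was the same order again, with differences from WT of 1.73 (SE 0.0887) in Y537S and 1.38 (SE 0.0895) in D538G cells. KIF23, which with RACGAP1 forms the centralspindlin complex of the midzone (chr15:69706688-69740764, plus strand), was at 44.8 and 45.8 CPM in WT, 134 and 162 CPM in D538G, and 217 and 171 CPM in Y537S clones. Its rise in Y537S cells, 4.37-fold, was the largest of any called kinesin in that comparison (log2 fold change 2.13, SE 0.122, edgeR adjusted p = 0.000115). KIF20A, the motor that brings the chromosomal passenger complex to the midzone (chr5:137514801-137523412, plus strand), was at 40.5 and 46.1 CPM in WT, 116 and 149 CPM in D538G, and 197 and 141 CPM in Y537S clones. Here the mutants overlapped with each other but not with WT, and the differences from WT were 1.99 (SE 0.159) in Y537S and 1.62 (SE 0.126) in D538G cells. KIF18B, a depolymerizer of astral microtubules, rose by 1.89 in Y537S and 1.56 in D538G cells.

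For 8 of 13 mitotic kinesins (KIF2C, KIF11, KIF14, KIF15, KIF18A, KIF18B, KIF22 and KIF23) the control libraries stood in the order WT, D538G, Y537S without overlap. This order was seen in 1 of 13 transport kinesins, KIF5B, and in 6.28% of all genes tested. Y537S and D538G cells were not tested against each other. Over all conditions, every one of the Y537S libraries lay above every WT library for 12 of 13 mitotic, 0 of 13 transport and 1 of 7 other kinesins (KIF24), and 10.2% of all genes did so. Every D538G library lay above every WT library for 11 of 13 mitotic kinesins, 2 of 13 transport kinesins (KIF1C and KIF5C) and 3 of 7 others (KIF7, KIF9 and KIF24), against 13.8% of all genes. The plot of control levels shows these shifts gene by gene.

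**Figure D1:**
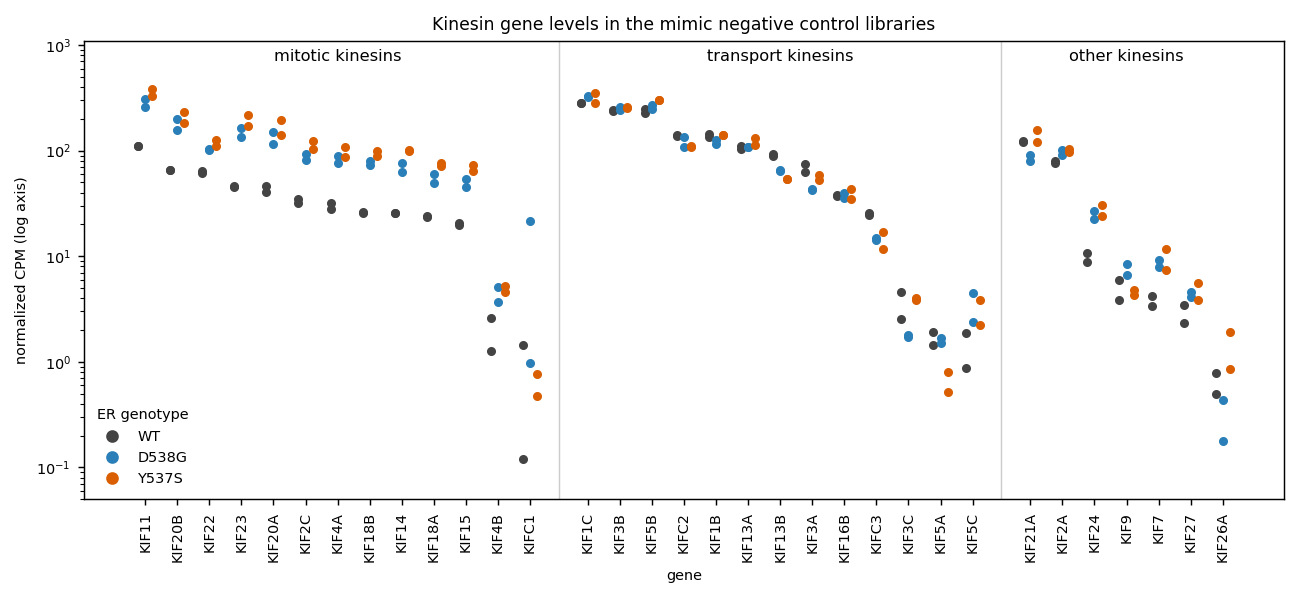
Normalized CPM (log axis) of the 33 kinesin genes in the mimic negative control libraries, 1 point per clone, grey for WT, blue for D538G and orange for Y537S, with genes ordered by their WT mean within each class. The WT points of 12 of 13 mitotic kinesins, all but KIFC1, sit below both mutants, whereas WT points of transport kinesins such as KIF3B (238 and 245 CPM) sit beside them. The share of all genes with WT below both mutants in these libraries was not counted.

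KIFC1, a minus-end motor that clusters centrosomes, is the exception among the mitotic genes. In D538G controls it was at 21.5 CPM in clone A5 and 0.983 CPM in clone C2, against 1.45 and 0.120 CPM in WT, so the groups overlapped. Leaving out 1 library at a time moved its difference between 0.31 and 6.50, and the call was lost in DESeq2 (adjusted p = 0.138).

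Transport kinesins did not move together. In Y537S cells 3 of 13 were called lower and 1 higher, and in D538G cells 4 were lower and 2 higher. Over all genes tested, 12.7% were called lower in Y537S and 18.5% in D538G cells. The median transport kinesin differed from WT by 0.09 in Y537S and by −0.06 in D538G cells, so the median of the mitotic kinesins exceeded that of the transport kinesins by 1.65 and 1.51. KIF3B (chr20:30865454-30922814, plus strand) was at 238 and 245 CPM in WT, 245 and 259 CPM in D538G, and 257 and 253 CPM in Y537S clones. The difference from WT was 0.11 (SE 0.0719, edgeR adjusted p = 0.306) in Y537S and 0.06 (SE 0.0673, edgeR adjusted p = 0.487) in D538G cells.

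KIFC3, a minus-end motor of epithelial cells, and KIF13B, a plus-end vesicle motor, were lower in both mutants. KIFC3 was at 25.8 and 24.4 CPM in WT and between 11.7 and 17.1 CPM in the control libraries of the mutants, with differences of −0.77 (SE 0.192) in Y537S and −0.79 (SE 0.117) in D538G cells. KIF13B was at 89.5 and 93.6 CPM in WT, 66.2 and 64.5 CPM in D538G, and 54.5 and 54.0 CPM in Y537S clones. KIFC2, a minus-end motor best known from neurons, fell by 0.33 in Y537S cells, from 140 ± 2.62 to 109 ± 1.54 CPM (SD, n = 2), and did not pass in D538G cells (log2 fold change −0.20, edgeR adjusted p = 0.148). KIF3A, the partner of KIF3B, fell by 0.68 in D538G cells, from 68.9 ± 8.20 to 42.9 ± 0.169 CPM (SD, n = 2). Its difference in Y537S cells was −0.28 (edgeR adjusted p = 0.121). KIF3C, a further partner of KIF3A, was at 2.55 and 4.54 CPM in WT and 1.72 and 1.79 CPM in D538G clones and had a log2 fold change of −1.01 in D538G cells that was called in edgeR (adjusted p = 0.0408) and not in DESeq2 (adjusted p = 0.0542). KIF5B rose by 0.38 in Y537S cells, and KIF5C (1.32, below 5 CPM in each control library) and KIF1C (0.20) rose in D538G cells.

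Of the 7 other kinesins, KIF24, a centriole depolymerizer, KIF7, a Hedgehog pathway protein of the cilium, and KIF2A, a microtubule depolymerizer, were up-regulated in both mutants. KIF24 went from 9.75 ± 1.36 CPM in WT to 27.4 ± 4.77 CPM in Y537S and 24.7 ± 3.37 CPM in D538G cells (SD, n = 2). KIF7 differed by 1.36 in Y537S and 1.18 in D538G cells, and KIF2A by 0.40 and 0.31. KIF21A fell by 0.52 in D538G cells, and its difference in Y537S cells was 0.21 (edgeR adjusted p = 0.234).

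The genes that work with mitotic kinesins moved with them. Of 12 partners of mitotic kinesins 12 were called higher in Y537S and 12 in D538G cells, with medians of 1.79 and 1.31. CENPE, a kinetochore motor of the same family that lacks the KIF name, rose by 1.77 in Y537S cells. PRC1, the midzone bundler that binds KIF4A and KIF14, rose by 2.02 in D538G cells. Of 16 G2/M genes without kinesins 16 rose in each mutant, with medians of 1.98 and 1.59. TOP2A, the topoisomerase of condensing chromosomes, rose by 2.02 in Y537S cells. Of 16 S phase genes 16 rose in each as well, with medians of 1.20 and 1.00. Of 11 tested partners of transport kinesins, 2 fell and 3 rose in Y537S and 2 fell and 2 rose in D538G cells. Of 16 dynein and dynactin genes, 0 fell and 3 rose in Y537S and 2 fell and 1 rose in D538G cells. DCTN1, the large dynactin subunit, rose in both, by 0.74 and 0.87. S phase and G2/M genes therefore stood higher in the same libraries as the mitotic kinesins, and their part in the kinesin differences was not tested.

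The promoters of the mitotic kinesins share sequence that the choice of members did not use. Promoters of 250 bases before to 50 bases after the start were taken from RefSeq (GRCh38.p14) for 28 of the 33 genes and searched on both strands for TTTGAA, the core of the cell cycle homology region, and for CCAAT, the box bound by NF-Y. TTTGAA was found in 10 of 13 mitotic kinesins, 1 of 9 transport kinesins (KIF5B), 0 of 6 others and 18.2% of all genes with a promoter. CCAAT was found in 11 of 13 mitotic, 4 of 9 transport and 1 of 6 other kinesins (KIF24) and in 39.7% of all genes. Of the mitotic kinesins 9 of 13 held both in 1 promoter, against 7.26% of all genes. KIF2C held neither, and KIF20A and KIF22 held CCAAT alone. The promoters of 3 mitotic kinesins and of KIF3B are printed on the strand of the gene, with TTTGAA (or TTCAAA) and CCAAT (or ATTGG) in capitals, to show the pair near the start in the former and CCAAT alone in the latter.
KIF14, chr1:200620702-200621001, minus strand: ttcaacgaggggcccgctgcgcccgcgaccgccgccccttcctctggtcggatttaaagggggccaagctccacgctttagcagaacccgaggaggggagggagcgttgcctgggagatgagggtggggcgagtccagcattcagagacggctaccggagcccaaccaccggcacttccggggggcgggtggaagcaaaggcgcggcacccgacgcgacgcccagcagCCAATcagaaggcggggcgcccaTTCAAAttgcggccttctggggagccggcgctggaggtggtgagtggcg
KIF11, chr10:92592880-92593179, plus strand: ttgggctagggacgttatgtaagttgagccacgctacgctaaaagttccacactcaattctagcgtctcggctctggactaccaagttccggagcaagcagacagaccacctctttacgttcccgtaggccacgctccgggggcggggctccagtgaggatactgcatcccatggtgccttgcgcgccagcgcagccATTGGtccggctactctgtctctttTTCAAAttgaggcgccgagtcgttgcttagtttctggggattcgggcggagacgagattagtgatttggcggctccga
KIF23, chr15:69414099-69414398, plus strand: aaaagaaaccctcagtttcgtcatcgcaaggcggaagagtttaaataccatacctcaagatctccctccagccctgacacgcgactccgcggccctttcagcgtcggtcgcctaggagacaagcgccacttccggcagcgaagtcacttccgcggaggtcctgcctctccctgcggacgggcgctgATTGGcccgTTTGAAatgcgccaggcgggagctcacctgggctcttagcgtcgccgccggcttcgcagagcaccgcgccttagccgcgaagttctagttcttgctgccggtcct
KIF3B, chr20:32277401-32277700, plus strand: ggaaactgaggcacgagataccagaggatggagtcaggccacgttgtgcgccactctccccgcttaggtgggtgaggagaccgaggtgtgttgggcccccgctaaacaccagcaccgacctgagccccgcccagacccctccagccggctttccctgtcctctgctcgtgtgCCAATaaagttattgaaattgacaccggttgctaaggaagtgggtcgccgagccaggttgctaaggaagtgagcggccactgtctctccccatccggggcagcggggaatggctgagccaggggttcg
A match is a description of these letters and was not tested as a binding site.

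The treatments were then compared with their own negative control within each genotype. The map of fold changes sets the 8 treatments beside the genotype differences.

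**Figure D2:**
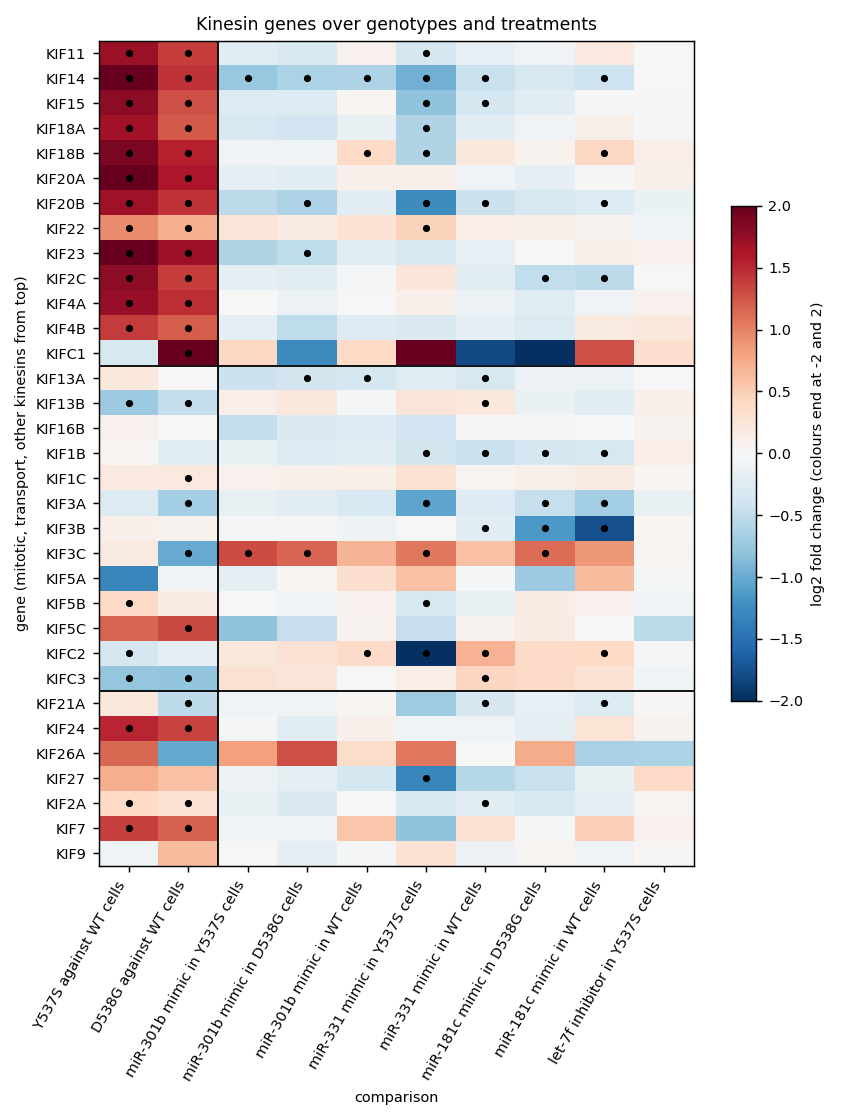
Log2 fold change of the 33 kinesin genes (rows, mitotic, transport and other kinesins from the top) in the 2 genotype and 8 treatment comparisons (columns), red for higher and blue for lower, with colours ending at −2 and 2. Black dots mark called genes: they fill the mitotic rows of the genotype columns, and in the treatment columns they range from 0 with the let-7f inhibitor to 13 with the miR-331 mimic in Y537S cells. KIF14 is marked in 6 of the 8 treatment columns.

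With the miR-301b mimic, KIF14 was the kinesin called lower in all 3 genotypes. In Y537S clones it went from 103 and 99.7 CPM to 57.5 and 64.7 CPM, in D538G clones from 62.7 and 76.7 to 43.6 and 46.0 CPM, and in WT clones from 25.5 and 25.8 to 19.0 and 14.5 CPM. Treated and control libraries, 2 against 2, did not overlap in any genotype, and the share of all genes without overlap was not counted. The log2 fold changes were −0.75 (SE 0.0984, edgeR adjusted p = 0.0270) in Y537S, −0.63 (SE 0.111, edgeR adjusted p = 0.00957) in D538G and −0.62 (SE 0.143, edgeR adjusted p = 0.0358) in WT cells, a fall of 1.68-, 1.55- and 1.54-fold. The differences between mutant and WT responses were −0.12 (SE 0.184) for Y537S and −0.01 (SE 0.194) for D538G cells, and neither passed (edgeR adjusted p = 1.00 for each). The KIF14 3′UTR holds no seed match to miR-301b.

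In Y537S cells the miR-301b mimic called 1 of 33 kinesins lower (KIF14) and 1 higher (KIF3C), against 2.34% and 1.23% of all genes tested. KIF3C rose from 3.86 and 3.99 to 8.48 and 11.1 CPM (log2 fold change 1.30, SE 0.223, edgeR adjusted p = 0.0420). KIF23 did not pass (−0.61, SE 0.135, edgeR adjusted p = 0.0693), nor did KIF11 (−0.22, adjusted p = 0.257), KIF20A (−0.19, adjusted p = 0.540) or KIF3B (−0.04, adjusted p = 0.829), all from edgeR. With the clone as a block, a fit that compares treated and control libraries within each clone, 17 kinesins were called, 12 lower and 5 higher, against 38.4% of all genes in either direction. The lower ones included KIF23 (edgeR adjusted p = 1.25e-17), KIF20B (−0.54), KIF16B (−0.47), KIF13A (−0.43), KIF18A (−0.32), KIF15 (−0.27), KIF11 and KIF20A. The clone term leaves less information on the spread within each gene, so p-values of this fit lean more on the spread shared among genes. A GC correction removes the trend of log2 CPM on transcript GC content from each library. With it alone neither KIF14 nor KIF3C was called, and of 15145 genes 17 were called lower and 6 higher. KIF14 then had a log2 fold change of −0.49 (edgeR adjusted p = 0.131).

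In D538G cells 4 kinesins were called lower and 1 higher, against 6.49% and 5.29% of all genes. Besides KIF14 these were KIF20B, a cytokinesis motor (−0.62, SE 0.109), KIF23 (−0.51, SE 0.115), KIF13A, a carrier of endosomal cargo (−0.37, SE 0.0888), and KIF3C (1.17, SE 0.285). KIF20B (chr10:91461347-91534691, plus strand) went from 158 and 199 to 117 and 115 CPM, and KIF23 from 134 and 162 to 95.1 and 112 CPM. In both genes the groups did not overlap, and the share of all genes without overlap was not counted. KIF11 (−0.30, adjusted p = 0.0837), KIF20A (−0.22, adjusted p = 0.330) and KIF3B (−0.03, adjusted p = 0.830) did not pass in edgeR. With the clone as a block 17 were called, 14 lower and 3 higher, against 33.3% of all genes, and KIF11 and KIF20A were among the lower ones. None of the 5 remained called with the GC correction alone, which called 135 of 14845 genes lower and 86 higher.

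In WT cells 2 kinesins were called lower and 2 higher, against 3.87% and 4.63% of all genes. KIF13A fell as in D538G cells (−0.35, SE 0.0813), from 112 and 104 to 87.1 and 82.7 CPM. KIFC2 (0.38, SE 0.0718) and KIF18B (0.40, SE 0.101) rose. KIF23 (−0.24, adjusted p = 0.144), KIF11 (0.08, adjusted p = 0.636), KIF20A (0.10, adjusted p = 0.562) and KIF3B (−0.10, adjusted p = 0.391) did not pass in edgeR. The block fit called 11, against 28.2% of all genes. With the GC correction KIF14 and KIF18B were no longer called, the value of KIFC2 turned to −0.06, and KIF5B was called higher (0.29). Of 15113 genes tested, the correction called 425 lower and 280 higher.

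The median mitotic kinesin differed by −0.20, −0.30 and −0.01 in Y537S, D538G and WT cells, and the median transport kinesin by −0.04, −0.03 and 0.00. The medians over all genes were between 0.00 and 0.01. The mitotic median minus the transport median was −0.27 in D538G cells and −0.14 with the block and GC correction together, and in WT cells it was −0.0080 and 0.14 with the GC correction. Among the partners of mitotic kinesins, RACGAP1, which binds KIF23, was called lower in Y537S (−0.60) and WT (−0.38) cells. CENPE (−0.57) and ECT2 (−0.45), a RhoA activator at the midzone, were called in D538G cells. In all, 1, 2 and 1 of 12 partners fell in Y537S, D538G and WT cells, and CIT was called higher in WT cells (0.41). Of 16 G2/M genes without kinesins 1, 3 and 1 fell in the same order. Among S phase genes, RRM2 (−0.44) and PCNA (−0.30) were called lower in D538G cells. MCM5 (0.47) and MCM2 (0.42) were called higher in WT cells. TRAK2, an adaptor that links mitochondria to kinesin-1, was lower in all 3 genotypes, by 1.05, 0.67 and 0.80 on the log2 scale in Y537S, D538G and WT cells, respectively. Of 11 tested partners of transport kinesins 1, 1 and 3 fell, and of 16 dynein and dynactin genes 0, 2 and 2 fell, among them DYNC1LI2 (−0.59 in D538G and −0.48 in WT cells).

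Of the 3 kinesins with a miR-301b seed match, KIF16B, a motor of early endosomes, had log2 fold changes of −0.47, −0.30 and −0.26 in Y537S, D538G and WT cells. KIF1B, a motor of mitochondria and vesicles, had −0.15, −0.25 and −0.21. Neither was called without the block, and both were called in all 3 genotypes with the clone as a block. That fit called 38.4%, 33.3% and 28.2% of all genes in Y537S, D538G and WT cells, in either direction. KIF13A, which holds no miR-301b match, was called lower with the block in Y537S cells and without it in D538G and WT cells. KIF5C, at 0.872 to 5.33 CPM over all libraries, was called in Y537S cells with the block (−0.78).

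The difference between a mutant's and WT cells' response to miR-301b was called for 0 of 33 kinesins in either mutant by edgeR, with and without the block, and by DESeq2. Over all genes it was called for 0.00632% with Y537S and 0.0064% with D538G cells. At an unadjusted p under 0.05, 1 kinesin differed for Y537S and 4 for D538G cells, against 343 of 15814 and 478 of 15613 genes.

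After transfection of miR-331 into Y537S clones, 11 of 33 were called lower and 2 higher, against 15.8% and 17.2% of all genes. The block fit called 24, 17 of them lower, against 60.7% of all genes. The kinesin with the lowest log2 fold change was KIFC2, which went from 109.9 and 108 to 25.3 and 24.1 CPM, a 4.33-fold fall (log2 fold change −2.11, SE 0.0925, edgeR adjusted p = 0.00523). The other Y537S libraries and the D538G libraries all lay between 108 and 168 CPM. In WT cells the same mimic moved KIFC2 the other way, from 138 and 142 to 233 and 210.5 CPM, a 1.61-fold rise (log2 fold change 0.69, SE 0.0667, edgeR adjusted p = 0.000141). The difference of the 2 responses was −2.82 (SE 0.110, edgeR adjusted p = 1.68e-05), the smallest p of any kinesin in that test, and the difference was −2.67 after the GC correction. The rise in WT cells was 0.13 after the GC correction (edgeR adjusted p = 0.253). The KIFC2 3′UTR holds no seed match to miR-331.

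KIF20B went from 234 and 184 to 86.8 and 84.8 CPM in Y537S cells (−1.25, SE 0.135, edgeR adjusted p = 0.00618), the lowest value among the called mitotic kinesins. KIF14 went from 103 and 99.7 to 45.8 and 56.0 CPM (−0.96, SE 0.128, edgeR adjusted p = 0.00748). KIF3A went from 52.3 and 59.2 to 21.6 and 31.1 CPM (−1.05, SE 0.198, edgeR adjusted p = 0.0148), whereas KIF3B stayed at 245 and 253 CPM (−0.01, adjusted p = 0.964). KIF27, a ciliary kinesin at 1.51 to 5.53 CPM over all libraries, fell by 1.30 (SE 0.340). The plot of KIF14, KIF20B and KIFC2 shows these libraries beside the other conditions.

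**Figure D3:**
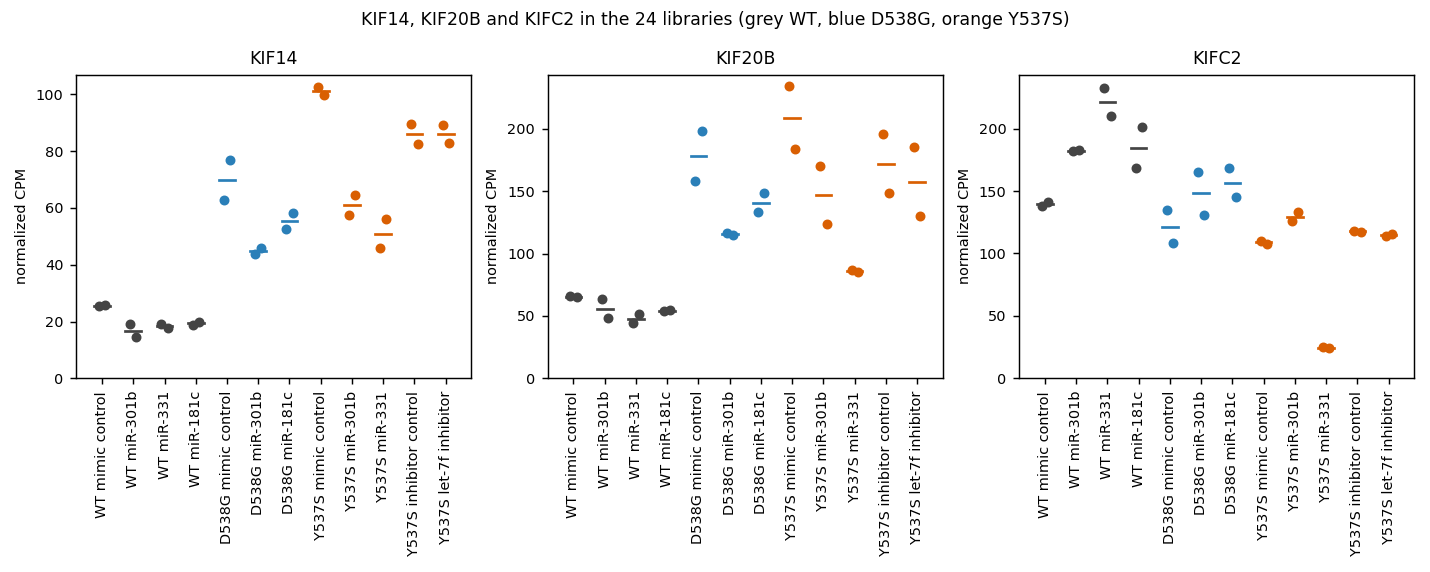
Normalized CPM of KIF14, KIF20B and KIFC2 in the 24 libraries, 1 point per clone with a bar at the mean of the 2 clones, grey for WT, blue for D538G and orange for Y537S. KIF14 is lower in the miR-301b libraries of each genotype, and KIFC2 drops to 25.3 and 24.1 CPM in the Y537S miR-331 libraries while the WT miR-331 libraries, at 233 and 210.5 CPM, are the highest of all.

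The remaining kinesins called lower in Y537S cells were KIF15, a second spindle-separating motor (−0.80), KIF18B (−0.61), KIF18A, which aligns chromosomes (−0.61), KIF1B (−0.37), KIF11 (−0.33) and KIF5B (−0.31). KIF3C (1.06, SE 0.205) and KIF22 (0.46, SE 0.113) were called higher. KIF23 (−0.31, adjusted p = 0.146) and KIF20A (0.10, adjusted p = 0.709) did not pass in edgeR. KIF11, KIF1B and KIF5B lost their call when any 1 of the 4 libraries was left out. With the GC correction 6 of the 13 calls remained, those of KIFC2, KIF14, KIF15, KIF18B, KIF1B and KIF3C. Of 14877 genes tested, 1378 were called lower and 1676 higher with it. KIF20B was then at −0.58 (edgeR adjusted p = 0.0556), KIF3A at −0.57 (adjusted p = 0.0664), and KIF11 turned to 0.05.

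Several of the kinesins called lower after this mimic have AT-rich transcripts, though KIF2A (37.6% GC) was not called. KIFC2 (67.2% GC) and KIF18B (58.4% GC) were called lower as well. The GC content of the canonical transcript was 34.3% for KIF20B, 36.0% for KIF18A, 36.1% for KIF27, 37.4% for KIF3A and 38.3% for KIF14, against a median of 45.6% over mitotic and 48.6% over transport kinesins. The plot of fold change against GC content gives each gene before and after the correction. The part of GC content in these differences was not tested beyond that correction.

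**Figure D4:**
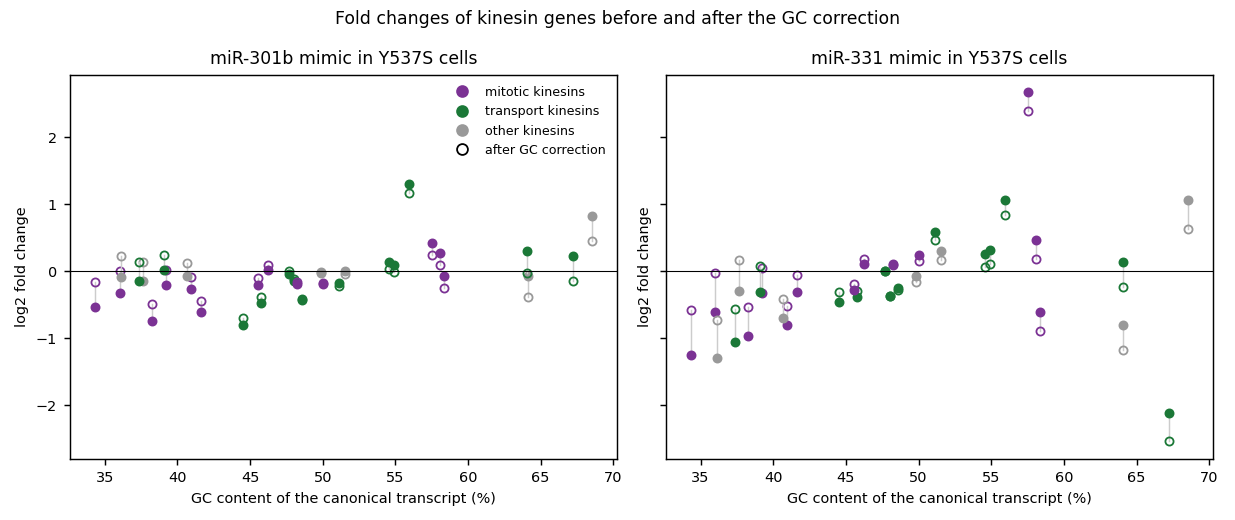
Log2 fold change of the 33 kinesin genes against the GC content (%) of their canonical transcript, with the miR-301b mimic (left) and the miR-331 mimic (right) in Y537S cells. Filled points are values before and open points after the GC correction, joined by a line and coloured by class; on the right KIF20B, at 34.3% GC, moves from −1.25 to −0.58.

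In WT cells 8 kinesins were called lower and 3 higher with the miR-331 mimic, against 10.6% and 14.2% of all genes. The lowest were KIF14 (−0.44, SE 0.0983), KIF20B (−0.43, SE 0.0797), KIF1B (−0.43, SE 0.0663) and KIF15 (−0.35, SE 0.107). KIF14 went from 25.5 and 25.8 to 19.3 and 17.9 CPM and KIF20B from 65.6 and 65.4 to 44.5 and 51.3 CPM. KIF21A (−0.34), KIF13A (−0.33), KIF3B (−0.22, SE 0.0565) and KIF2A (−0.20) followed. KIFC3 (0.43) and KIF13B (0.21) rose beside KIFC2. KIF11 (−0.17, adjusted p = 0.0642), KIF23 (−0.17, adjusted p = 0.134) and KIF20A (−0.08, adjusted p = 0.570) did not pass in edgeR. The block fit called 16, 12 lower and 4 higher, against 37% of all genes, and KIF11 (edgeR adjusted p = 0.0218), KIF2C, KIF3A and KIF5B were added on the lower side and KIF3C on the higher. Only the call of KIF1B remained with the GC correction, which called 388 of 15140 genes lower and 771 higher.

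The difference between the Y537S and WT responses to miR-331 was called for 3 of 33 kinesins, against 9.94% of all genes. Besides KIFC2 these were KIF20B (−0.84, SE 0.167, edgeR adjusted p = 0.0205) and KIF18B (−0.84, SE 0.137, edgeR adjusted p = 0.00971). The 5 remaining named genes had differences of −0.54 (KIF14, adjusted p = 0.0598), −0.17 (KIF11, adjusted p = 0.345), −0.16 (KIF23, adjusted p = 0.579), 0.17 (KIF20A, adjusted p = 0.700) and 0.20 (KIF3B, adjusted p = 0.188), all from edgeR. The block fit called 15, 10 lower and 5 higher in Y537S cells, against 34.1% of all genes. Those added on the lower side included KIF3A (−0.82), KIF14 (−0.54), KIF15 (−0.46) and KIF7 (−1.10).

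The median mitotic kinesin differed by −0.31 in Y537S and −0.20 in WT cells with the miR-331 mimic, and the median transport kinesin by −0.25 and 0.02. The mitotic median minus the transport median went with the GC correction from −0.06 to 0.20 in Y537S and from −0.22 to −0.05 in WT cells, and for the difference of the responses from −0.19 to −0.02. CENPE fell by 2.08 in Y537S and 0.77 in WT cells. Of 12 partners of mitotic kinesins 3 fell and 2 rose in Y537S cells, BIRC5 among the latter (0.69), and 5 fell and 1 rose in WT cells. Of 16 G2/M genes 4 fell and 3 rose in Y537S cells, with MKI67 at −0.97 and TTK at −0.70, and 6 fell and 1 rose in WT cells. Of 11 tested partners of transport kinesins 2 fell and 3 rose in Y537S cells, MAPK8IP2 (1.65) and MAPK8IP1 (1.05) among the latter, and 3 fell and 5 rose in WT cells. Of 16 dynein and dynactin genes 1 fell and 3 rose in Y537S and 0 fell and 2 rose in WT cells. Of 16 S phase genes 0 fell and 6 rose in Y537S and 3 fell and 2 rose in WT cells.

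Of the 8 kinesins with a miR-331 seed match, KIF1B was the one called lower, in both genotypes. KIF1B was called lower in D538G and WT cells with the miR-181c mimic as well, and its 3′UTR holds no seed match to miR-181c. KIF13B was called higher in WT cells. The rest were not called: KIF16B was at −0.38 in Y537S and 0.02 in WT cells, KIF24 at −0.08 and −0.06, and KIF5A, KIF5C, KIF9 and KIF26A, all of low level, between −0.45 and 1.05.

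The miR-181c mimic lowered KIF3B and its partner KIF3A. KIF3B went from 245 and 259 to 119 and 106 CPM in D538G clones, a 2.22-fold fall (log2 fold change −1.15, SE 0.0815, edgeR adjusted p = 0.00129). In WT clones it went from 238 and 245 to 71.0 and 73.1 CPM, a 3.37-fold fall (log2 fold change −1.75, SE 0.0729, edgeR adjusted p = 3.80e-06). These were the lowest KIF3B levels of the 24 libraries, as its other libraries lay between 203 and 261 CPM. The calls remained in both genotypes with each library left out in turn, with the GC correction and in DESeq2.

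KIF3A fell with it, from 43.1 and 42.8 to 33.6 and 28.3 CPM in D538G (−0.46, SE 0.107, edgeR adjusted p = 0.0272) and from 74.7 and 63.1 to 41.3 and 43.9 CPM in WT clones (−0.70, SE 0.0974, edgeR adjusted p = 0.00143). KIF2C, a depolymerizer that corrects microtubule attachments at the centromere, was the mitotic kinesin called in both genotypes. It went from 81.0 and 92.7 to 56.9 and 65.2 CPM in D538G (−0.50, SE 0.0981) and from 32.0 and 34.8 to 24.5 and 22.3 CPM in WT clones (−0.52, SE 0.104). Treated and control libraries did not overlap for any of these 3 genes, and the share of all genes without overlap was not counted. KIF3B, KIF3A and KIF2C are 3 of the 4 kinesins with a miR-181c seed match. The fourth, KIF5A, had 0.475 to 2.97 CPM over all libraries and was at −0.72 in D538G and 0.63 in WT cells, neither of them called. The plot of the 3 genes shows their libraries.

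**Figure D5:**
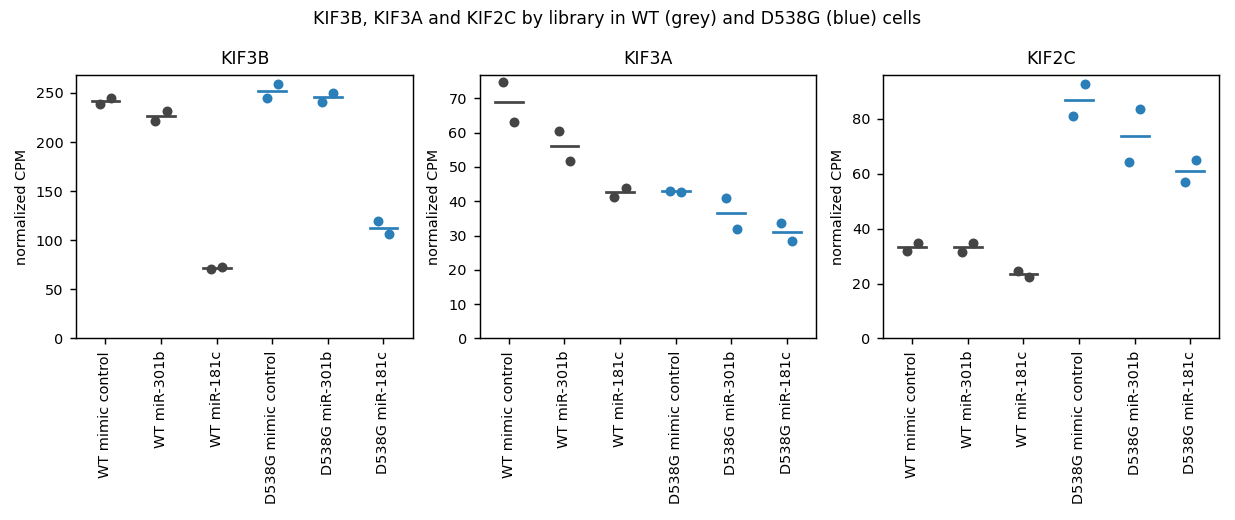
Normalized CPM of KIF3B, KIF3A and KIF2C in WT (grey) and D538G (blue) cells with the mimic negative control, the miR-301b mimic or the miR-181c mimic, 1 point per clone with a bar at the mean of the 2 clones. KIF3B sits at 71.0 and 73.1 CPM in the WT and 119 and 106 CPM in the D538G miR-181c libraries, below its 4 control libraries at 238 to 259 CPM.

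In D538G cells 4 of 33 kinesins were called lower and 1 higher with the miR-181c mimic, against 3.95% and 5.58% of all genes. The others were KIF1B (−0.35, SE 0.0800) and KIF3C (1.12, SE 0.289), which was at 1.72 and 1.79 CPM in the controls and lost its call whichever library was left out. KIF14 (−0.32, adjusted p = 0.0876), KIF20A (−0.20, adjusted p = 0.471), KIF11 (−0.08, adjusted p = 0.667) and KIF23 (−0.01, adjusted p = 0.953) did not pass in edgeR. The block fit called 15, 11 lower and 4 higher, against 29.3% of all genes, and KIF14 and KIF20A were among the lower ones. Only KIF3B remained called with the GC correction alone, with KIF2C at −0.47 (edgeR adjusted p = 0.0586) and KIF3A at −0.27 (adjusted p = 0.267). Of 14826 genes tested, that correction called 117 lower and 89 higher.

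In WT cells 7 were called lower and 2 higher, against 8.28% and 8.1% of all genes. KIF14 fell by 0.41 (SE 0.104), KIF1B by 0.33 (SE 0.0730), KIF20B by 0.28 (SE 0.0775) and KIF21A by 0.28 (SE 0.0721), while KIF18B (0.42, SE 0.0955) and KIFC2 (0.40, SE 0.0908) rose. KIF11 (0.20, adjusted p = 0.0867), KIF23 (0.11, adjusted p = 0.480) and KIF20A (0.02, adjusted p = 0.930) did not pass in edgeR. The block fit called 13, 8 lower and 5 higher, against 27.9% of all genes, and added KIF11 (edgeR adjusted p = 0.0269), KIF3C and KIFC3 on the higher and KIF13B on the lower side. With the GC correction KIF3B, KIF3A, KIF2C and KIF1B kept their calls and KIF14, KIF20B, KIF21A, KIF18B and KIFC2 lost them. KIF11 was then called higher, at 0.42 (edgeR adjusted p = 0.00371). Of 14968 genes tested, the correction called 605 lower and 505 higher.

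The difference between the D538G and WT responses to miR-181c was called for 0 of 33 kinesins, against 0.00646% of all genes. At an unadjusted p under 0.05, 5 kinesins differed, against 453 of 15482 genes. For KIF3B the difference was 0.61 (SE 0.104, edgeR adjusted p = 0.568), a smaller fall in D538G cells. With the clone as a block KIF3B was the 1 kinesin called (edgeR adjusted p = 0.000777), against 0.0775% of all genes, and it was called in DESeq2 as well (adjusted p = 0.00259).

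The median mitotic kinesin differed by −0.22 in D538G and 0.08 in WT cells, and the median transport kinesin by 0.03 and −0.01. The mitotic median minus the transport median went with the GC correction from −0.24 to −0.07 in D538G and from 0.09 to 0.16 in WT cells. Of 12 partners of mitotic kinesins 0 fell and 0 rose in D538G and 0 fell and 1 rose (CIT, 0.45) in WT cells. Of 16 G2/M genes 0 were called in either. Of 11 tested partners of transport kinesins 0 fell and 3 rose in each genotype, KLC2, a kinesin-1 light chain, by 0.40 in D538G and 0.41 in WT cells and MAPK8IP3 by 0.50 and 0.30. Of 16 dynein and dynactin genes 1 fell in each, DYNC1LI2, by 0.29 and 0.33.

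With the let-7f inhibitor in Y537S cells 0 of 33 kinesins passed. By edgeR 0% of all genes were called lower and 0% higher, 786 of 15140 genes had an unadjusted p under 0.05, and 0 of these were kinesins. DESeq2 called 63 genes lower and 16 higher, and 0 kinesins. The log2 fold changes of the 33 kinesins ran from −0.64 (KIF26A) to 0.38 (KIF27), with a median of 0.03. KIF14 was at 89.6 and 82.5 CPM with the inhibitor control and 89.0 and 82.9 CPM with the inhibitor (−0.0045, SE 0.0846). KIF11 (0.0043, SE 0.0992), KIF3B (0.04, SE 0.0669), KIF23 (0.09, SE 0.137) and KIF20A (0.10, SE 0.131) moved by less than 2 SE. With the clone as a block 1 kinesin was called, KIF20B (−0.14, edgeR adjusted p = 0.0388), against 11.2% of all genes. KIF27 and KIFC2, which hold a let-7f seed match, were at 0.38 (SE 0.331) and −0.04 (SE 0.0699).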

How the data were processed

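Poly-A selected RNA of 24 libraries was sequenced. The authors deposited raw counts for each gene, made by aligning reads to hg19 with HISAT2, converting them with SAMtools and counting with featureCounts of Subread on UCSC Known Genes. The versions, whether strand was used in counting, and how multi-mapping reads were handled are not given in the sources used here. Groups follow the labels, and clones follow the column names. Libraries held 31379962 to 50526442 counts (median 39878595), and the precision of each log2 fold change is given by its SE.

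From these counts, normalized CPM (TMM) and log2 fold changes were computed with edgeR 4.0.16 in R 4.3.3, using filterByExpr, a quasi-likelihood F test and Benjamini-Hochberg adjustment over all genes tested (threshold 0.05), in the groups of each of 14 comparisons. The response differences were tested as interaction contrasts. The scripts were tested on simulated counts. Alternatives were DESeq2 1.42.0, DESeq2-type size factors, a fit over every condition of the genotypes involved, omission of the low-count filter, a replicate block for the clone, a GC correction (lowess span 0.3), the block joined with that correction, and leaving out each library. Same-numbered libraries come from the same clone, so the numbers pair the libraries, and their deviations correlated by 0.116 to 0.468 over genes. The 2 clones are separate lines of a genotype, and replicate libraries differed beyond sampling noise. 3′UTRs, lengths and GC content came from the GENCODE v44 annotation on GRCh37, miRNAs and promoters from RefSeq on GRCh38.p14. The annotation held 22494 of the symbols as printed and 1358 under a former name, and 2512 stayed unmatched.

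The kinesins and the gene lists were chosen with earlier results of these data known, so no p-value was adjusted over a list alone. The genes named are KIF14, KIF3B, KIF11, KIF20A and KIF23 in every comparison, the 4 lowest and 4 highest called kinesins, genes with a seed match, and from the other lists the genes of smallest p. Further kinesins were named after their values were seen.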

Additional observations from a re-analysis of the deposited data

Results flagged for a closer look

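For 3 of 33 kinesins, a share near the 9.94% of all genes, the test of the difference between genotypes passed. In these 3 the response to the miR-331 mimic differed between Y537S and WT cells. KIFC2 differed by −2.82 on the log2 scale (edgeR adjusted p = 1.68e-05), with a fall in both Y537S clones and a rise in both WT clones. That rise was not called after the GC correction. KIF20B differed by −0.84 (edgeR adjusted p = 0.0205), with a fall in all 4 clones that was larger in Y537S cells. KIF18B differed by −0.84 (edgeR adjusted p = 0.00971). With the GC correction the differences were −2.67 for KIFC2, −0.41 for KIF20B, which no longer passed (edgeR adjusted p = 0.234), and −0.93 for KIF18B. When 1 of the 8 libraries was left out in turn, KIFC2 passed 8 times, KIF18B 6 times and KIF20B 4 times. Groups of 2 libraries are too small for a check of single libraries that stand apart.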

How the results depend on the processing

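The number of kinesins called in the genotype comparisons (19 in Y537S and 23 in D538G cells) moved by less than 1.5 times under every alternative other than leaving out a library. The treatment counts moved more, and their causes were not tested. With the clone as a replicate block the counts in Y537S cells were 17 for miR-301b, 24 for miR-331 and 1 for let-7f. They were 17 for miR-301b and 15 for miR-181c in D538G cells, and 11 for miR-301b in WT cells. For the differences in response to miR-331 and miR-181c they were 15 and 1. The block changed no other count by over 1.5 times. With the GC correction the counts were 0, 7, 0, 1, 2 and 1 for miR-301b and miR-331 in Y537S, miR-301b and miR-181c in D538G, and miR-301b and miR-331 in WT cells. In each of these comparisons fewer of all genes were called with the correction as well. With the replicate block and GC correction together they were 13 for miR-301b in Y537S, 3 for let-7f, 10 and 11 for miR-301b and miR-181c in D538G, 8 and 7 for miR-301b and miR-331 in WT cells, and 1, 2, 12 and 1 for the differences in response to miR-301b (Y537S, D538G), miR-331 and miR-181c. DESeq2 gave 6 for miR-301b in Y537S cells and 5 and 1 for the differences in response to miR-331 and miR-181c. All conditions in 1 fit gave 4 and 5 for miR-301b in Y537S cells and the miR-331 difference. Without the filter on low counts the values were 11 and 10 for miR-301b and miR-181c in D538G, 7 for miR-301b in WT cells, and 7 and 2 for the miR-331 and miR-181c differences.

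Leaving out 1 library at a time gave 13 to 25 called kinesins for Y537S and 20 to 22 for D538G against WT cells. It gave 0 to 2 (miR-301b), 9 to 11 (miR-331) and 0 to 0 (let-7f) in Y537S, 3 to 11 (miR-301b) and 2 to 8 (miR-181c) in D538G, and 2 to 5 (miR-301b), 4 to 12 (miR-331) and 3 to 9 (miR-181c) in WT cells. For the differences in response it gave 0 to 0 for miR-301b in either mutant and for miR-181c and 1 to 7 for miR-331. Values turned sign in these cases: KIF11 with miR-331 in Y537S cells (0.0465 with the GC correction and 0.0497 with block and GC correction), KIF11 (0.11) and KIF23 (0.15) with miR-181c in D538G cells under block and GC correction, KIFC2 with miR-301b in WT cells (−0.0622 and −0.0626 in the same order) and KIFC3 with miR-331 in WT cells (−0.00092 with the GC correction and −0.00022 with block and GC correction). Kinesins of few counts were measured less precisely: between D538G and WT cells the SE was 1.20 for KIFC1 and 0.111 for KIF14.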
